A study of Mus musculus with 10 samples.

Results

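The killer cell lectin-like receptors are a family of C-type lectin-like surface proteins of natural killer (NK) cells and of some T cells and myeloid cells. The family was taken here as every gene of the deposited expression table whose symbol begins with Klr, a letter from a to k and a digit, with the NK cell receptor gene Ncr1 and the cytotoxic granule gene Nkg7 added. This gave 38 of the 24421 genes in the table, of which 22 were measured, meaning that they were above 0 in at least 1 of the 10 tumors. The other 16 were listed at 0 in every tumor. Transcripts were compared between whole YUMMER1.7 melanomas grown in WT mice (5 tumors) and in mice labelled Siah2 KO (5 tumors), the question being what the loss of the ubiquitin ligase Siah2 in the host does to the tumor.

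All 10 tumors came from the same injected line, a mouse melanoma line with a high mutation burden that is Braf-mutant and Cdkn2a-/- among other alleles, of which 100000 cells were placed under the skin of each host and allowed to grow for 10 days. The genotypes therefore differed in the host cells, and the study's methods describe its mice as young adult males on a C57BL/6 background. For this line those methods give a larger number of injected cells unless noted otherwise. The number used here is that of the sample records. The strain label of the first tumor reads C57Bl6, and its last number goes up by 1 with each further sample, so the label was not used. No label gives a litter for a tumor or states that each came from its own mouse, so the p-values measure the spread between these tumors. Siah2 itself ranged from 391 to 428 in WT tumors and from 490 to 747 in the tumors labelled Siah2 KO, a 1.54-fold higher level (limma adjusted p = 0.00104). The transcript thus went against the label, for a value that covers the whole gene and all cells of the tumor, and the second group is called KO-labelled tumors throughout. Library totals of the normalized values lay between 15414758 and 16503134. All values below are these normalized scores, each the read count of a gene scaled between libraries by the authors and rounded.

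In the mouse, most of the receptors are encoded in a cluster on chromosome 6, the NK gene complex. Inhibitory members, such as most Klra (Ly49) receptors and the Klrc1-Klrd1 (NKG2A-CD94) pair, bind MHC class I molecules on other cells and restrain killing through tyrosine phosphatases. Activating members, such as Klrk1 (NKG2D), bind stress-induced ligands and signal through the adaptors Hcst (DAP10) and Tyrobp (DAP12). Ncr1 (NKp46) belongs to the immunoglobulin superfamily and is a marker of NK cells and some other innate lymphoid cells, and Nkg7 is a membrane protein of cytotoxic granules in NK and T cells.

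To show the regulatory sequence of the genes that separated the groups most clearly, the promoter windows of the 4 members with the smallest p and an entry in the RefSeq promoter table are printed (GRCm38.p6, the same assembly as mm10, from 250 bases before to 50 bases after the annotated start, 5′ to 3′ on the gene's strand). These are Klrc1 (chr6:129678924-129679223, minus strand), Klra2 (chr6:131247313-131247612, minus strand), Nkg7 (chr7:43436888-43437187, plus strand) and Klra3 (chr6:130337577-130337876, minus strand). Capitals mark matches on either strand to TGTGGT, the core bound by RUNX factors, AGGTGTGA, a T-box element, and TTCNNNGAA, a STAT-type element.
Klrc1: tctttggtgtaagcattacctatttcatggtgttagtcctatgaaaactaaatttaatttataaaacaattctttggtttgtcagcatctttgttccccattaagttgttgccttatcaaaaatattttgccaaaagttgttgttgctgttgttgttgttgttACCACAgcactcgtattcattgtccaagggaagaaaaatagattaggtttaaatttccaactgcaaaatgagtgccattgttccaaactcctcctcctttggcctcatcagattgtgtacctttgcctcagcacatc
Klra2: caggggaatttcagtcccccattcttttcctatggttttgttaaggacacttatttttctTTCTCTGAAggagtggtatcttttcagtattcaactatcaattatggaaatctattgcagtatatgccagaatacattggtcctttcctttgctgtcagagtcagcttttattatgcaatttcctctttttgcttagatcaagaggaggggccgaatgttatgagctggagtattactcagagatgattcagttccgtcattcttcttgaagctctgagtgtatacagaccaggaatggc
Nkg7: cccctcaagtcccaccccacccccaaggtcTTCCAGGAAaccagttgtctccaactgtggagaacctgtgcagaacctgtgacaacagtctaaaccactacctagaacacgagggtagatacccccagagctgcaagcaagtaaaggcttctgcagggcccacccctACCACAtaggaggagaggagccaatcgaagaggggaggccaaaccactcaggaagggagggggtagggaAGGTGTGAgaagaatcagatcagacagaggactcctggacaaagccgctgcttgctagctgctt
Klra3: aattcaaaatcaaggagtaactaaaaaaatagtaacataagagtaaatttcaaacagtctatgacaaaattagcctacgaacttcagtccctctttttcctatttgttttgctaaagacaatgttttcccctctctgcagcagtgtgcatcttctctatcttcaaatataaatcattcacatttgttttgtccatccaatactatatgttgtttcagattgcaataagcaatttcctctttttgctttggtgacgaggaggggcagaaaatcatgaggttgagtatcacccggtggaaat

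The Nkg7 window held all 3 motifs, with the RUNX core starting at base 168, the T-box element at base 237 and the STAT-type element at base 31. The Klrc1 window held the RUNX core at base 164, the Klra2 window held a STAT-type element at base 61, and the Klra3 window held none of these letters. No marked matches overlapped. Of 22 measured members 17 matched an entry, and 8 of these windows (47.1%) held the RUNX core, against 16.9% of the windows of 27025 genes, taking the first listed window of each gene. The T-box element was in 1 member window (5.88%, against 1.27%) and the STAT-type element in 4 (23.5%, against 8.47%). The RUNX core was in the windows of Klra1, Klrb1a, Klrb1c, Klrc1, Klre1, Klrk1, Ncr1 and Nkg7, of which Klra1 and Klrb1a did not pass the test between groups. The motifs were chosen with the results known, and a match is a description of the letters only.

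Receptor transcripts were higher in KO-labelled tumors for most of the measured family. Of the 22 measured genes, 17 rose and none fell (limma, adjusted p under 0.05), where 17.5% of all 12926 genes tested rose and 18.2% fell. No member was lower at an unadjusted p under 0.05 either. In 13 of the 22 every KO-labelled tumor was above every WT tumor, which held for 11.9% of the genes tested, and no member had every KO-labelled tumor below (12.9% of the genes tested). More than 2-fold rises were seen in 6 members, Klra17, Klra2, Klrc1, Klra3, Nkg7 and Klre1, against 2.68% of the genes tested. By the study's own thresholds, an unadjusted p under 0.01 with a log2 difference beyond 1, 6 members rose and none fell, where 2.65% of the genes tested rose and 3.34% fell. The median difference of the measured members was 0.84 on the log2 scale (1.79-fold), while that of all genes tested was 0.00. With scores rescaled to equal library totals 15 members rose, and 38.6% of all calls were higher rather than 49.0%. Each of the 22 had a WT mean above 9.8, the lowest mean over all 10 tumors of any measured gene. The study's methods give no rule by which genes were set to 0, so this does not show why a member was measured. The lowest WT means were those of Klra17 (12.6) and Klra14-ps (13.0). Whether these were measured through the KO-labelled group alone was not tested.

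**Figure D1:**
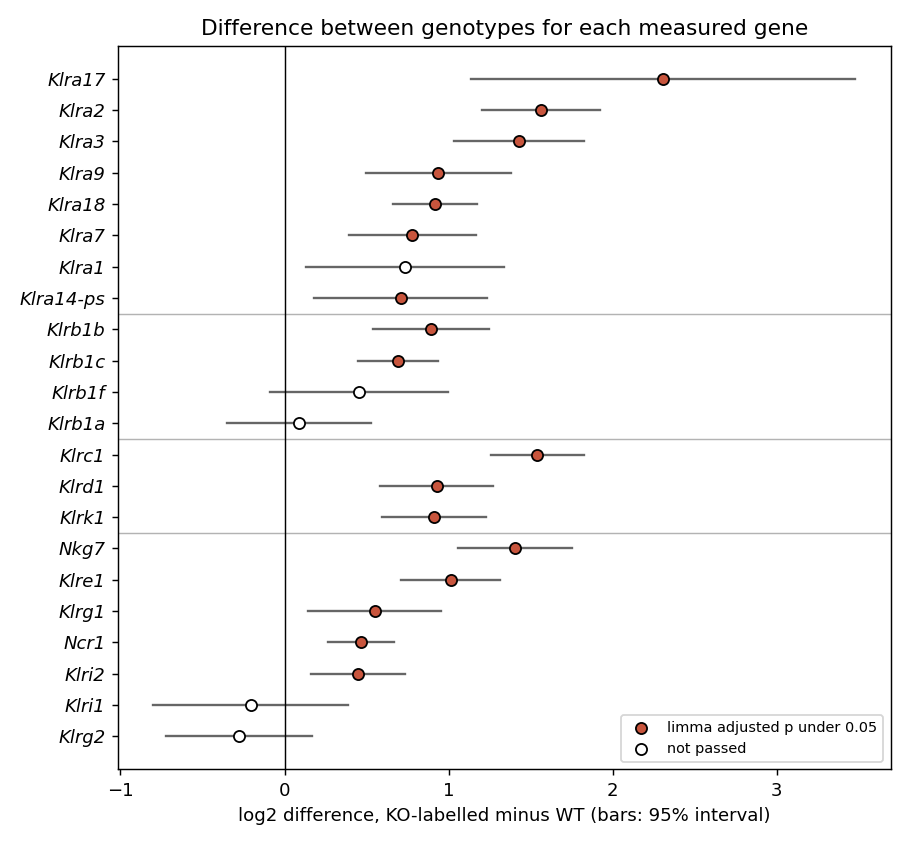
Difference between KO-labelled and WT tumors for each measured gene, on the log2(score + 1) scale, with 95% intervals from limma (5 tumors per group). Filled points passed at an adjusted p under 0.05 (17 genes), open points did not (5 genes), and horizontal lines separate the Klra, Klrb, Klrc/d/k and other genes.

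In whole tumors, more cells of a type and more RNA per cell cannot be told apart. T cell and leukocyte transcripts moved with the receptors. For the marker counts that follow, the shares over all genes tested were 17.5% higher and 18.2% lower. The 9 measured T cell markers summed to 1129 to 1583 in WT and 1652 to 2952 in KO-labelled tumors, and 6 of the 9 rose, led by Cd8a, Cd8b1 and Cd3d, while Cd4, Cd5 and Cd6 did not pass. All 4 measured NK cell markers (Ncr1, Klrb1c, Klre1 and the transcription factor Eomes) rose and summed to 522 to 601 against 833 to 1127. Klra4 and Klra8, also on this list, were listed at 0 in every tumor, which was not read as lack of expression. Apart from Eomes the genes of this NK list are members of the family, so the list is not a separate measure of NK cells. The leukocyte markers Ptprc, Laptm5 and Coro1a summed to 11332 to 13701 against 17151 to 22786. The macrophage markers, of which Cd68 alone passed, summed to 24907 to 31309 against 26018 to 45201. Of 5 innate lymphoid markers, Il1rl1 and Il7r rose, Tmem176a fell, and Gata3 and Rora did not pass. The 5 genes summed to 2117 to 2879 against 3661 to 7515. Il1rl1 made up most of these sums, with 1220 to 1811 in WT and 2828 to 6016 in KO-labelled tumors. All 3 fibroblast markers fell (Pdgfrb 2.56-fold, Pdgfra 1.54-fold and Col1a1 1.35-fold), from sums of 17929 to 20605 to sums of 10672 to 14825. Of the endothelial markers, Pecam1, which leukocytes also express, rose 1.60-fold and Cdh5 fell 1.58-fold, with sums of 3419 to 4053 against 2563 to 3779. The part of these cell types in the receptor differences was not tested. Of the melanoma markers only Mitf was measured, with 277 to 406 in WT and 278 to 409 in KO-labelled tumors, and Pmel, Mlana, Dct, Tyr and Sox10 were listed at 0.

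The Klrc, Klrd and Klrk genes all rose where measured. Klrc1 encodes the inhibitory chain NKG2A, which pairs with CD94 and recognizes the nonclassical class I molecule Qa-1. Klrc1 (ENSMUSG00000030167.15, mm10 chromosome 6, 129666015 to 129678973, minus strand) had scores of 137, 135, 141, 167 and 131 in WT hosts, against 392, 355, 475, 537 and 344 in KO-labelled hosts. The groups were far apart, with the lowest KO-labelled tumor at 344 and the highest WT tumor at 167. The mean rose from 142.2 ± 14.3 to 420.6 ± 82.9 (SD, n = 5 each; log2 difference 1.54 ± 0.13 SE, limma adjusted p = 4.78e-06), the smallest p in the family.

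Its partner Klrd1 (CD94; mm10 chromosome 6, 129591782 to 129598775, plus strand) was 302, 294, 288, 388 and 251 in WT tumors and 566, 462, 569, 851 and 493 in KO-labelled tumors. Klrd1 was higher without overlap between the groups, by 0.93 ± 0.16 (SE) on the log2 scale or 1.90-fold (limma adjusted p = 0.000751). The ratio of the Klrc1 score to the Klrd1 score within a tumor was 0.430 to 0.522 in WT and 0.631 to 0.835 in KO-labelled tumors. This ratio, chosen after the values were seen and not tested, was thus higher in every KO-labelled tumor than in any WT tumor. Klrd1 also pairs with the activating chains Klrc2 and Klrc3, both listed at 0 in all tumors, which was not read as lack of expression.

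Klrk1 (NKG2D; mm10 chromosome 6, 129610323 to 129623864, minus strand), the activating receptor for stress ligands, is carried by NK cells and by activated CD8 T cells. Its scores were 458, 474, 532, 509 and 610 in WT tumors and 959, 688, 1060, 1330 and 915 in KO-labelled tumors. The lowest KO-labelled tumor, 688, was close above the highest WT tumor, 610, and the log2 difference was 0.91 ± 0.15 SE, a 1.88-fold rise (limma adjusted p = 0.000484). The ratio of the Klrk1 score to the Klrd1 score overlapped between the groups, at 1.31 to 2.43 in WT and 1.49 to 1.86 in KO-labelled tumors.

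**Figure D2:**
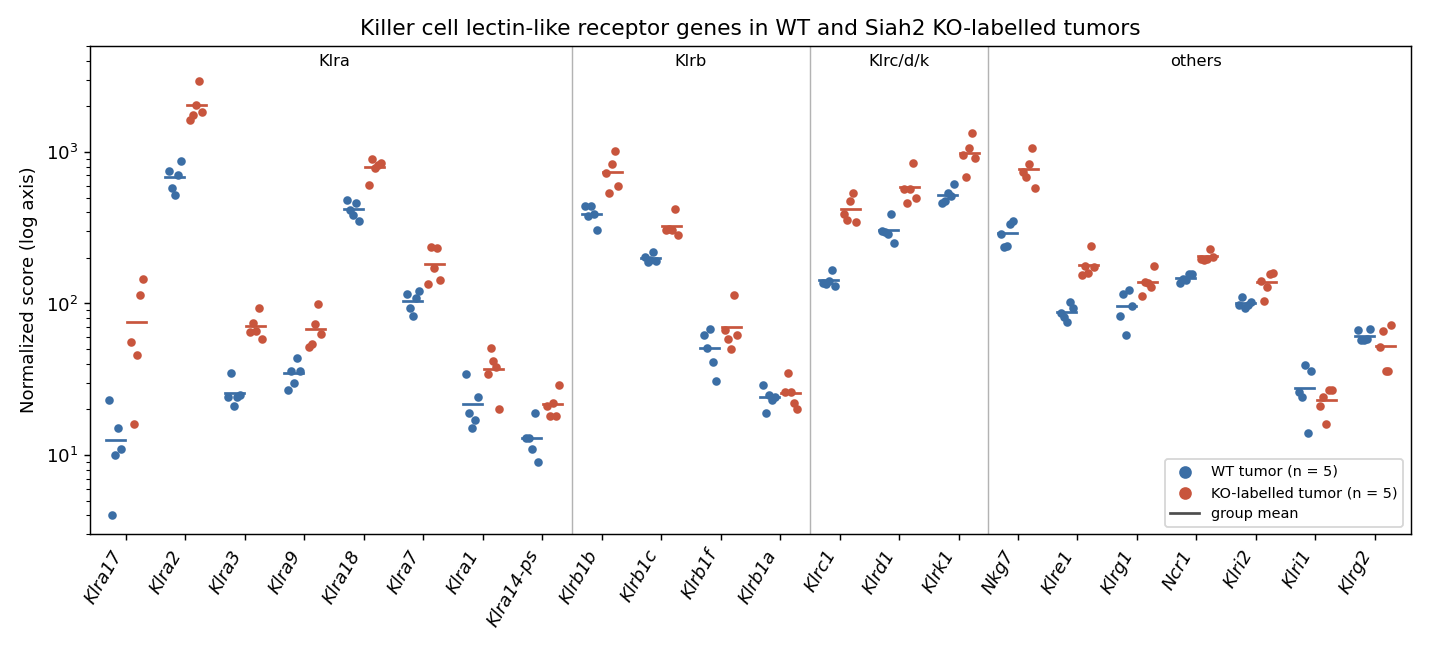
Normalized scores of the 22 measured genes (log axis) in each WT tumor (blue) and each KO-labelled tumor (red), with lines at the group means (n = 5 each). The groups do not overlap for 13 genes, among them Klrc1, Klrk1 and Klra2, and are interleaved for genes such as Klrb1a and Klri1.

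The Klra genes encode the Ly49 receptors, which in the mouse do the work that the killer cell immunoglobulin-like receptors do in humans. Of 8 measured Klra genes, 7 rose and Klra1 did not pass. Klra2 (Ly49B; mm10 chromosome 6, 131219223 to 131247362, minus strand) lies apart from the main Klra cluster and is known from myeloid cells rather than NK cells. Its scores were 745, 579, 519, 707 and 870 in WT and 1629, 1752, 2032, 2931 and 1840 in KO-labelled tumors. The 2.96-fold rise was without overlap, at 1.56 ± 0.17 (SE) on the log2 scale (limma adjusted p = 2.51e-05).

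Klra17 (Ly49Q), an inhibitory receptor of plasmacytoid dendritic cells and other myeloid cells, had the largest log2 difference of the family and also the widest spread. Its scores were 23, 4, 10, 15 and 11 in WT tumors and 56, 16, 46, 113 and 144 in KO-labelled tumors. The KO-labelled tumor at 16 fell inside the WT range while the other 4 were above it, and the log2 difference was 2.31, with a 95% interval from 1.13 to 3.48 (limma adjusted p = 0.0055). Scores this low sit near the lower end of what was measured, and the coefficient of variation of Klra17 was 55.7% among WT and 69.6% among KO-labelled tumors, against 6.13% and 7.24% for Ncr1.

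The inhibitory receptors of NK cells in this group were Klra3 (Ly49C), Klra7 (Ly49G), Klra9 (Ly49I) and Klra1 (Ly49A). Klra3 was 24, 35, 21, 24 and 25 in WT and 65, 74, 66, 93 and 58 in KO-labelled tumors, and rose 2.70-fold (limma adjusted p = 0.000102). Klra9, a near relative of Klra3, was 27, 36, 30, 44 and 36 against 52, 54, 73, 99 and 63 and rose 1.92-fold (limma adjusted p = 0.00337). Klra7 was 116, 94, 83, 108 and 121 against 134, 237, 171, 232 and 142 and rose 1.71-fold (limma adjusted p = 0.00487). In each of these 3 genes all KO-labelled tumors were above all WT tumors. Klra1 overlapped between the groups, with 34, 19, 15, 17 and 24 in WT and 34, 51, 42, 38 and 20 in KO-labelled tumors (log2 difference 0.73, 95% interval 0.13 to 1.34, limma adjusted p = 0.0565).

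Klra18 and the pseudogene Klra14-ps are the remaining measured Klra entries. Klra18 matched no gene of that name in the GENCODE vM21 or RefSeq annotation of GRCm38, so neither a role nor coordinates are given. It was 480, 414, 382, 462 and 349 in WT and 608, 897, 787, 814 and 839 in KO-labelled tumors and rose 1.89-fold without overlap (limma adjusted p = 0.000107). Klra14-ps was 13, 13, 11, 19 and 9 against 21, 18, 22, 18 and 29, with overlapping groups, and rose 1.63-fold (limma adjusted p = 0.0383). Klra4 (Ly49D) and Klra8 (Ly49H), activating receptors that signal through Tyrobp, were among 12 Klra entries listed at 0. Klra genes are close copies of each other, so reads may have been shared or lost between them in the counting, and a 0 was not read as lack of expression, since ribosomal protein genes such as Rpl26 were listed at 0 as well.

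The Klrb genes encode the NKR-P1 receptors, whose ligands are Clec2 (Clr) proteins. Of 4 measured, 2 rose. Klrb1c, which encodes the NK1.1 antigen used to identify NK cells in C57BL/6 mice, was 203, 187, 194, 218 and 192 in WT tumors and 306, 312, 303, 420 and 282 in KO-labelled tumors. The WT tumors were close together and all below the lowest KO-labelled tumor, and the rise was 1.62-fold (log2 difference 0.69 ± 0.11 SE, limma adjusted p = 0.000501). Klrb1b, the inhibitory receptor for the Clec2d product, was 438, 377, 439, 392 and 305 against 729, 532, 826, 1018 and 594, again without overlap, and rose 1.86-fold (limma adjusted p = 0.00115).

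The other measured Klrb genes overlapped between groups. Klrb1f, which recognizes the Clec2i product, had 62, 51, 68, 41 and 31 in WT and 67, 58, 50, 113 and 62 in KO-labelled tumors (log2 difference 0.45, 95% interval -0.09 to 0.997, limma adjusted p = 0.176). Klrb1a had 29, 19, 25, 23 and 24 against 26, 35, 26, 22 and 20 (log2 difference 0.09, 95% interval -0.35 to 0.53, limma adjusted p = 0.763). The interval of Klrb1a leaves out a difference as large as that of Klrb1b (0.89), while that of Klrb1f does not. Klrb1 and Klrb1-ps1 were listed at 0.

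Among the remaining genes, Nkg7 (mm10 chromosome 7, 43437073 to 43438249, plus strand) rose most, from 288, 237, 241, 335 and 350 in WT tumors to 733, 679, 834, 1055 and 580 in KO-labelled tumors. The groups were apart by more than the range of the WT tumors, and the log2 difference was 1.41 ± 0.16 SE, or 2.65-fold (limma adjusted p = 4.32e-05). Ncr1 (mm10 chromosome 7, 4337724 to 4345164, plus strand) was 137, 145, 142, 157 and 157 against 198, 194, 196, 230 and 204. Its coefficient of variation in KO-labelled tumors was the lowest of the measured members, and it rose 1.38-fold (log2 difference 0.47, 95% interval 0.26 to 0.67, limma adjusted p = 0.0022), without overlap. The intervals of Nkg7 (1.06 to 1.75) and Ncr1 do not meet, although the difference between these genes was not itself tested.

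Klre1 forms receptors with Klri1 or Klri2, pairings described in the rat. Klre1 was 87, 82, 75, 102 and 94 in WT and 153, 177, 158, 238 and 173 in KO-labelled tumors and rose 2.02-fold without overlap (limma adjusted p = 0.000171). Klri2, whose product makes the activating pair in the rat, was 97, 110, 93, 97 and 103 against 141, 104, 129, 157 and 160. With 4 of 5 KO-labelled tumors above the WT range, Klri2 rose 1.36-fold (limma adjusted p = 0.0187). Klri1, which makes the inhibitory pair in the rat, was 26, 24, 39, 14 and 36 against 21, 24, 16, 27 and 27 (log2 difference -0.21, 95% interval -0.80 to 0.39, limma adjusted p = 0.584). No KO-labelled tumor exceeded the highest WT tumor for Klri1.

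Klrg1, an inhibitory receptor for cadherins on mature NK cells and effector T cells, was 83, 115, 62, 123 and 96 in WT and 112, 138, 136, 128 and 177 in KO-labelled tumors. It rose 1.46-fold (limma adjusted p = 0.036) with overlapping groups. Klrg2 was 67, 57, 57, 58 and 68 against 52, 66, 36, 36 and 72, with KO-labelled tumors both above and below the WT range (log2 difference -0.28, 95% interval -0.72 to 0.17, limma adjusted p = 0.310). Klrg2 lies far from the NK gene complex, at 38625693 to 38637242 on chromosome 6.

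The calls of Klra14-ps and Klrg1 were the least stable. Klra14-ps lost significance in 7 and Klrg1 in 6 of the 10 fits that left out a single tumor, with limma adjusted p up to 0.0898 and 0.0855. Klra14-ps did not pass without any of WT replicates 2, 3, 4 and 6, Siah2 KO replicates 1 and 3 or column KO5, and Klrg1 did not pass without any of WT replicates 2, 4 and 6, Siah2 KO replicates 2 and 3 or column KO5. Conversely, Klra1 passed without WT replicate 2 (limma adjusted p = 0.027) and without column KO5 (0.0115). Without both columns KO4 and KO5, whose numbers do not match the sample titles, 15 members rose, and Klri2 did not pass (limma adjusted p = 0.11).

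Levels of the genes were compared with each other only per kilobase of exon, using the union of GENCODE vM21 exons, which may differ from the annotation behind the scores. On that scale the WT means were highest for Klra2 (360.4 per kb), Nkg7 (317.5), Klrd1 (237.8) and Klrb1b (175.1), followed by Ncr1 (95.8) and Klra7 (82.5). Klrk1 (71.9) and Klrc1 (71.7) were level in WT tumors on this scale. In KO-labelled tumors the Klrc1 mean was 212.0 per kb and that of Klrk1 137.9. The order of these 2 genes rests on the lengths used, 7183 bases for Klrk1 and 1984 for Klrc1. Before division by length, the means of Klrk1 and Klrc1 were 516.6 and 142.2 in WT and 990.4 and 420.6 in KO-labelled tumors. Klra18 has no annotated length and was not placed in this order. Among the members with a length, the myeloid receptor Klra2 had the highest level in both groups, at 1073 per kb in KO-labelled tumors.

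KO-labelled tumors differed among themselves in the level of the family as a whole. Summed over the 22 genes, scores were 3876, 3501, 3467, 4020 and 3893 in WT tumors and 7054, 6923, 8053, 10500 and 7238 in KO-labelled tumors. Column KO4 alone was the highest KO-labelled tumor for 12 of the 22 genes, and column KO1 and column KO3 for none. Klra17, Klri2 and Klrg1 were highest in column KO5 instead, and Klra7, Klra18 and Klra1 in column KO2. Every called member kept its direction without column KO4, and 17 members rose in that fit as well. Column KO4 was also the highest KO-labelled tumor for Cd3d, Cd3e, Cd3g and the leukocyte markers Ptprc, Laptm5 and Coro1a.

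**Figure D3:**
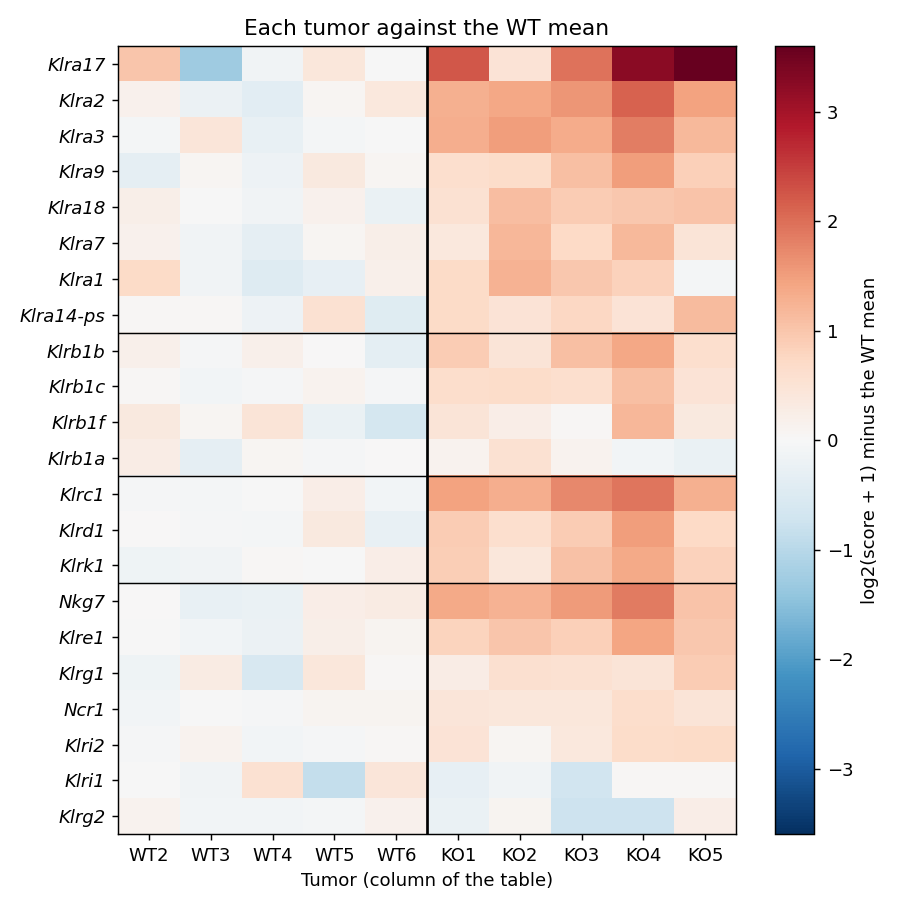
Score of each measured gene in each tumor as the log2(score + 1) difference from the mean of the 5 WT tumors (colour scale), with the WT tumors to the left of the vertical line and horizontal lines between gene groups. Column KO4 is the highest KO-labelled tumor for 12 genes, and the largest deviation is that of Klra17 (3.59).

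The receptors were also described relative to T cell transcripts. Within each tumor, the log2 level of a member was set against the mean of the T cell receptor genes Cd3d, Cd3e and Cd3g, as a description with no test. Relative to these genes, 6 of the 22 members had a higher mean in KO-labelled tumors (Klra17, Klra2, Klrc1, Klra3, Nkg7 and Klre1) and 16 had a lower mean. The reference lowers the mean difference of every member by the same amount, and these 6 are the members named above as more than 2-fold higher. The groups overlapped on this scale for 20 members. Klrc1 was above in every KO-labelled tumor (0.50 to 0.91, against -0.35 to 0.41 in WT), and Klrb1a was below in every KO-labelled tumor (-4.02 to -2.74, against -2.62 to -2.04). Ncr1 was at -0.35 to 0.42 in WT and -0.69 to 0.16 in KO-labelled tumors on this scale.

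Set against Ptprc, which encodes the pan-leukocyte antigen CD45, 11 of the 22 members had a higher mean in KO-labelled tumors. These are the members whose log2 difference as deposited was above that of Ptprc itself (0.78). Klra2, Klrc1 and Nkg7 were above in every KO-labelled tumor, while Ncr1 and Klrg2 were below in every KO-labelled tumor. For Ncr1 the log2 difference from Ptprc was -4.89 to -4.59 in WT and -5.16 to -4.92 in KO-labelled tumors. The Ncr1 transcript was therefore higher per library and lower per Ptprc transcript. Klrd1, Klrk1, Klrb1c and Klra7 overlapped between groups under both references.

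**Figure D4:**
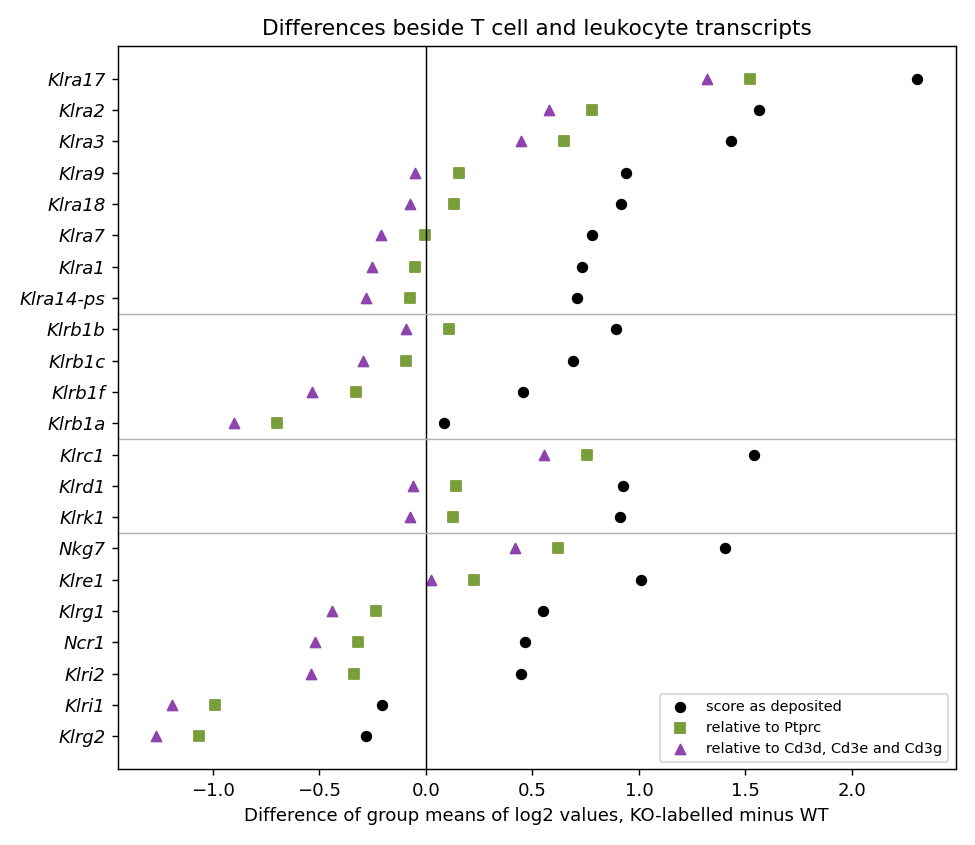
Difference between KO-labelled and WT group means for each measured gene, on the log2(score + 1) scale as deposited (black circles), relative to Ptprc in the same tumor (green squares) and relative to the mean of Cd3d, Cd3e and Cd3g in the same tumor (purple triangles). Each reference shifts all genes by the same amount, and Klra2, Klra3, Klra17, Klrc1, Klre1 and Nkg7 stay above 0 on all 3 scales.

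Genes through which the receptors signal were also higher in part. Of 19 measured adaptor and signalling genes, 11 rose (against 17.5% of all genes tested), 2 fell (against 18.2%) and 6 did not pass. Their median log2 difference was 0.57. Tyrobp, the adaptor of activating Klra and Klrc pairs, which myeloid cells also express, rose 1.88-fold from 1749 to 3407, and Hcst, the adaptor of Klrk1, ranged from 35 to 70 in WT and from 53 to 152 in KO-labelled tumors (limma adjusted p = 0.0634). The smallest p values among those that rose were of the kinase Zap70 (1.65-fold), the Fc receptor adaptor Fcer1g (1.97-fold) and the exchange factor Vav1 (1.53-fold). Ptpn6, which encodes the phosphatase SHP-1 recruited by inhibitory receptors, rose 1.65-fold. The phospholipases Plcg1 (1.55-fold lower) and Plcg2 (1.26-fold lower) fell.

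Most ligand genes of the receptors did not pass. Of 13 measured, 5 rose (against 17.5% of all genes tested), 1 fell (against 18.2%) and 7 did not pass. Their median log2 difference was 0.27. MHC class I genes were 4 of the 5 that rose, with H2-T23, which encodes the Qa-1 ligand of Klrc1-Klrd1, up 2.35-fold (6191 to 13754 in KO-labelled against 3371 to 4916 in WT tumors), H2-K1 up 1.70-fold and H2-D1 up 1.60-fold, along with their shared light chain B2m (1.52-fold). The stress ligands of Klrk1 did not pass, among them Raet1e (99 in WT, 105.6 in KO-labelled tumors) and Ulbp1 (192.8 and 169.4). Clec2i, the ligand gene for Klrb1f, rose 1.38-fold, and Clec2d, that for Klrb1b, averaged 1082 in WT against 1370 in KO-labelled tumors (limma adjusted p = 0.326, not passed). Cdh1, which encodes the Klrg1 ligand E-cadherin, fell 2.06-fold from 110.0 to 53.2, with overlapping groups.

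Transcription factors of NK cells and cytotoxic T cells rose in 7 of 14 measured cases, against 17.5% of all genes tested. In 1 case they fell, against 18.2%, and the median log2 difference was 0.39. Runx3 rose 1.79-fold (limma adjusted p = 1.19e-05), with 445 to 497 in WT and 774 to 956 in KO-labelled tumors. Nfil3, needed for NK cell development, rose 2.08-fold, and Tbx21, which encodes T-bet, rose 2.05-fold, while Ikzf2 (1.33-fold lower) fell. Eomes, of the same T-box family as Tbx21, rose 1.49-fold.

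Of 28 other measured surface and cytotoxic genes of NK cells, 17 rose, 4 fell and 7 did not pass (median log2 difference 0.78). Granzyme B (Gzmb, 4.16-fold) and the receptors Slamf7 (3.93-fold) and Cd244 (2.31-fold) had the smallest p among those that rose. The chemokine receptor Cx3cr1 (6.22-fold lower), the integrin Itga2 (2.61-fold lower), known as the NK marker DX5 antigen, and the chemokine Xcl1 (1.57-fold lower), which NK cells secrete, fell. Cx3cr1 is expressed by mature NK cells and by macrophages. Of all genes tested 17.5% rose and 18.2% fell, so the 4 of 28 that fell were not more than that share.

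Of 7 measured genes for cytokines that act on NK cells and their receptors, 5 rose, 1 fell and 1 did not pass. The shares over all genes tested were 17.5% higher and 18.2% lower. The median log2 difference of the 7 was 0.45. Il15, which maintains NK cells, rose 1.36-fold, and its presenting chain Il15ra rose 1.99-fold. Il27 (3.12-fold) and the shared receptor chain Il2rg (1.77-fold) also rose, whereas Il12b fell 1.77-fold.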

How the data were processed

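Whole-tumor poly(A) RNA was sequenced single-end from 10 tumors. As the study's methods and the processing notes of the submitters state, reads were checked with FastQC, aligned to mm10 with STAR, counted per gene with featureCounts and normalized with edgeR through SARTools. Versions, the gene annotation, the strand setting and the treatment of reads shared by overlapping or duplicated genes were not given in the sources used here. In the deposited table each gene has 1 score per tumor, its count after the authors normalized and rounded it. As scores are not raw counts, no count test was run, the read depth behind each value was not derived, and no counting interval is given.

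Columns were matched to sample titles, which number the knockout tumors 1, 2, 3, 5 and 6. Columns KO4 and KO5 were used by group only. Genes at 0 in all tumors (11495) were left out, and 12926 were tested as log2(score + 1) with limma 3.58.1 in R 4.3.3 (intercept and genotype, empirical Bayes with a mean-variance trend, Benjamini-Hochberg adjustment over all genes tested, threshold 0.05). Fold changes are on the log2(score + 1) scale, which understates changes of genes with low scores. The fit was tested on simulated data. The members, lists and named genes were chosen with earlier results of these data known. Every measured member was named, and from each list the 3 genes with the smallest p in each direction, plus ligands and adaptors of members. Some further genes of the lists, such as Il15 and Eomes, were named outside this rule. Alternatives were other pseudocounts (0.5 and 10), a mean score of at least 50, other scalings, no trend, a robust trend, array weights, the study's thresholds (unadjusted p under 0.01 with a log2 difference beyond 1), left-out tumors and a replicate block. Gene positions and exon lengths are from GENCODE vM21.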

Additional observations from a re-analysis of the deposited data

Results flagged for a closer look

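In 61 named genes, each of the 2 groups was checked for a tumor whose gap to its nearest neighbour exceeded 0.71 of the group's range (Dixon's 95% value for 5 samples, which chance passes in about 1 of 20 groups). This held in 9 of 122 groups. The KO-labelled tumor that stood apart was the highest for Klrb1c (420), Klrb1f (113), Klrd1 (851), Klre1 (238), Ncr1 (230) and Laptm5 (8476). For all 6 of these genes it was column KO4. In WT tumors, the highest value stood apart for Klra3 (35, WT replicate 3) and Klrc1 (167, WT replicate 5), and the lowest for Tmem176a (320). Without column KO4 the log2 differences of Klrb1c, Klrd1, Klre1 and Ncr1 were still past the threshold.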

How the results depend on the processing

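The count of members that rose (17) was 15 to 17 with a single tumor left out and 15 with equal library totals, with array weights and without both columns KO4 and KO5, and no member fell under any alternative. The study's thresholds, under which 6 members rose, are not part of the next count. Of 456 member values under the other alternatives, 417 kept their direction and side of the threshold, 32 lost significance, 4 gained it and 3 reversed. With a single tumor left out, the log2 difference of Klrb1a went from -0.025 (without Siah2 KO replicate 2) through 0.16 (without WT replicate 2) to 0.17 (without column KO5), and that of Klrb1f was -0.061 in the fits of the 4 tumors numbered 2 and 3. The 10 members that passed under every fit that held them were Klra18, Klra2, Klra3, Klra7, Klrb1c, Klrc1, Klrd1, Klre1, Klrk1 and Nkg7, and Klra3 was not in the fit with a mean score of at least 50. Ligand genes that fell numbered 1 to 2 with a tumor left out.

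In the 4 tumors numbered 2 and 3 in both groups, the number as a replicate block gave 12 members higher and no transcription factor lower (0). Deviations from the group means were hardly correlated between tumors of the same number (0.035 and 0.05 across 12926 genes). No tumors of unlike number were compared in this way, and no label says what the number stands for. Whether the numbers mark a pairing is therefore not settled. Without the block, 10 members rose, and 1406 genes in all rose against 2259 in all tumors. In that fit 6 adaptor genes rose and 1 fell, 3 ligand genes rose and 0 fell, 4 transcription factors rose and 0 fell, and 3 cytokine genes rose and 0 fell. These fits hold fewer tumors.

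With the study's thresholds 6 members rose, where 2.65% of genes tested rose and 3.34% fell. By these thresholds 0 adaptor genes rose and 0 fell, 1 ligand gene rose and 1 fell, 2 transcription factors rose and 0 fell, 10 surface and cytotoxic genes rose and 2 fell, and 1 cytokine gene rose and 0 fell. These thresholds ask for a log2 difference over 1. Mean scores under about 30 limit the precision of some genes. This held in both groups for Klra14-ps, Klrb1a and Klri1, and in WT tumors only for Klra17, Klra1 and Klra3.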
